A study of Homo sapiens with 27 samples.

Results

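The Tip60 (TIP60, KAT5) complex was followed through 10 of its subunit genes, out of 58233 genes in the tables: KAT5, EP400, TRRAP, RUVBL1, RUVBL2, DMAP1, ING3, EPC1, BRD8 and MBTD1. They were picked out by gene name, by a rule that holds no measured value, though the set was proposed with earlier results of these data known, and all 10 were found. Tip60 is the catalytic subunit of a large assembly that acetylates histones H4, H2A and the variant H2A.Z, and the same assembly can exchange H2A.Z into nucleosomes. KAT5 carries the acetyltransferase, EP400 is the ATPase scaffold, TRRAP is a docking surface for transcription activators including MYC, and the paired ATPases RUVBL1 and RUVBL2 are shared with other chromatin complexes. EPC1 joins the catalytic module to the scaffold together with ING3 and MBTD1, which read histone methylation, while BRD8 holds bromodomains and DMAP1 is a subunit shared with the SRCAP complex.

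All libraries came from cells of HL-60, a human leukaemia line of promyelocyte-like cells long kept in culture, with 1 library per group and no replicates, so each ratio compares libraries and has no replicate check. Nascent RNA, the newly made RNA captured after labelling, was sequenced from cells given 100 µM DRB, 0.8 µM actinomycin D (ActD) or the vehicle DMSO, and nascent and total RNA from untreated cells; the length of treatment is not known here. DRB inhibits the kinases that release RNA polymerase II into elongation, and ActD intercalates into DNA and blocks transcription. Chromatin immunoprecipitation (ChIP) peaks of acetylated H2A.Z (acH2A.Z) and of H2A.Z covered DRB, ActD and DMSO cells and cells labelled siMyc and siNTC, and RNA immunoprecipitation (RIP) peaks covered antibodies to Tip60, acH2A.Z and H2A.Z in untreated cells. No RNA library of the siMyc and siNTC cells was used here, so the knockdown named in their labels was not checked. Of 6 promyelocyte markers 5 stood above 1 CPM (counts scaled to a common library total) in all 5 RNA libraries, and ELANE was at or near 0. The RNA libraries held between 12600067 and 25167597 expected counts, and mitochondrial genes took 66.5% of them under DRB, 56.9% under ActD and 45.9% under DMSO, against 0.56% in untreated nascent and 0.65% in total RNA. CPM values of all other genes move with that share, so ratios are also given centred on the median gene.

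The sequences before 6 gene starts are shown because the results turn on these genes: KAT5 and DMAP1 parted under ActD, and RUVBL1 and EPC1 each have a pair of starts that carried separate acH2A.Z peaks. Each line gives the 250 bases before a RefSeq start (GRCh38.p14), 5′ to 3′ in the direction of the gene, with capitals for matches on either strand to CACGTG (an E-box, the sequence MYC and MAX can bind), CCGGAAG (an ETS family core), GGGCGG (a GC box), the NRF1 palindrome or TATAAA.
KAT5, chr11:65712002-65712251, plus strand: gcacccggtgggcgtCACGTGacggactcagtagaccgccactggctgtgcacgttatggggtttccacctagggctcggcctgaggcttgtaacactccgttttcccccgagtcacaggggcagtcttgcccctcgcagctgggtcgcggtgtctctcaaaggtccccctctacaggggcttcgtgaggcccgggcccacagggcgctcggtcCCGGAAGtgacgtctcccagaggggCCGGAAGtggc
DMAP1, chr1:44213221-44213470, plus strand: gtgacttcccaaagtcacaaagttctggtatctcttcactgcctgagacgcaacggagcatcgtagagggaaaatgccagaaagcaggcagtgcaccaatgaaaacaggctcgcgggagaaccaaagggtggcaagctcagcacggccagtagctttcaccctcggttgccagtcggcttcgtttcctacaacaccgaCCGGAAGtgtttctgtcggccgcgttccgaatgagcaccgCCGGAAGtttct
RUVBL1 first start, chr3:128153915-128154164, minus strand: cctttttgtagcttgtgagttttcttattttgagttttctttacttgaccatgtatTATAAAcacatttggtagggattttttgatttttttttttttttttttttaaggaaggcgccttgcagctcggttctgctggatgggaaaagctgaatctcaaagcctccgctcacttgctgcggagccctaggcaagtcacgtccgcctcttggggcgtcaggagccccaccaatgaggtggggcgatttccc
RUVBL1 second start, chr3:128123813-128124062, minus strand: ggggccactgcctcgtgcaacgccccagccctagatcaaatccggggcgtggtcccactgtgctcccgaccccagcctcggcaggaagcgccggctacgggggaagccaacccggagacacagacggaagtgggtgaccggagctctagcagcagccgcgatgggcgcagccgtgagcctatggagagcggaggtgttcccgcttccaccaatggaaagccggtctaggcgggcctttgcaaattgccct
EPC1 first start, chr10:32378770-32379019, minus strand: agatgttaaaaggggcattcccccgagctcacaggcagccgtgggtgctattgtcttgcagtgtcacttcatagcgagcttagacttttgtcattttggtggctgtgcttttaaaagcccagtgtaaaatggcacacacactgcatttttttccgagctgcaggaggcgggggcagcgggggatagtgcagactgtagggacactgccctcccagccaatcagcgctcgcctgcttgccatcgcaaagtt
EPC1 second start, chr10:32347159-32347408, minus strand: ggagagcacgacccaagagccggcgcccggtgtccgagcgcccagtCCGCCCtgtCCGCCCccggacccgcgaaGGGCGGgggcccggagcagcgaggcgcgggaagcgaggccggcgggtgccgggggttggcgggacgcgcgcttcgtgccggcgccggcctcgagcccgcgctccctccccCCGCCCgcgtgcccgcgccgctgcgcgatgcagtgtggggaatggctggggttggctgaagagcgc

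RefSeq promoter entries matched 8 of the 10 genes, with 11 starts in all. KAT5 held the sole E-box among them, 235 bases before its start, and 2 copies of CCGGAAG at 36 and 11 bases. The RefSeq span of KAT5 begins farther out than this start, at chr11:65712018, so most of its window lies inside the annotated gene. DMAP1 also held 2 copies of CCGGAAG, at 52 and 12 bases, and EP400 held 1. The second EPC1 start held 4 GC boxes and the first none of the motifs. The E-box was found in 1 of 11 windows, against 6.34% of 35116 windows of this length, CCGGAAG in 3 of 11 against 8.52%, and GGGCGG in 4 of 11 against 42.6%. TATAAA was found in 1 of 11 windows, the first RUVBL1 start, against 10.7%, and the NRF1 palindrome in 0 of 11 against 1.03%. No matches overlapped. These are letter matches in the reference, not measured binding.

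In untreated cells the ATPase gene RUVBL2 gave the most RNA of the complex per length and ING3 the least. Levels between genes are compared as CPM per kb of the authors' effective length. RUVBL2 stood highest, at 67.2 CPM per kb in untreated nascent and 84.7 CPM per kb in total RNA. ING3 stood lowest, at 1.21 and 1.49 CPM per kb in the same libraries. BRD8 came next to RUVBL2 at 46.5 and 54.5 CPM per kb, and MBTD1 and EPC1 were among the 3 lowest. In total RNA the counting intervals of KAT5 at 44.1 and RUVBL1 at 40.4 CPM per kb, neighbours in the order, overlapped, as did those of RUVBL1 and DMAP1 (36.9) and of MBTD1 (4.01) and EPC1 (3.47). None of the 10 genes differed 2-fold between untreated nascent and total RNA, where 9.50% of 13988 genes were higher and 17.8% lower. Their log2 ratios of nascent over total RNA, taken after adding 1 CPM, lay between -0.81 for DMAP1 and 0.85 for EPC1. Centred on the median gene, EPC1 was 2-fold higher, where 13.3% of genes were higher and 10.3% lower.

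**Figure D1:**
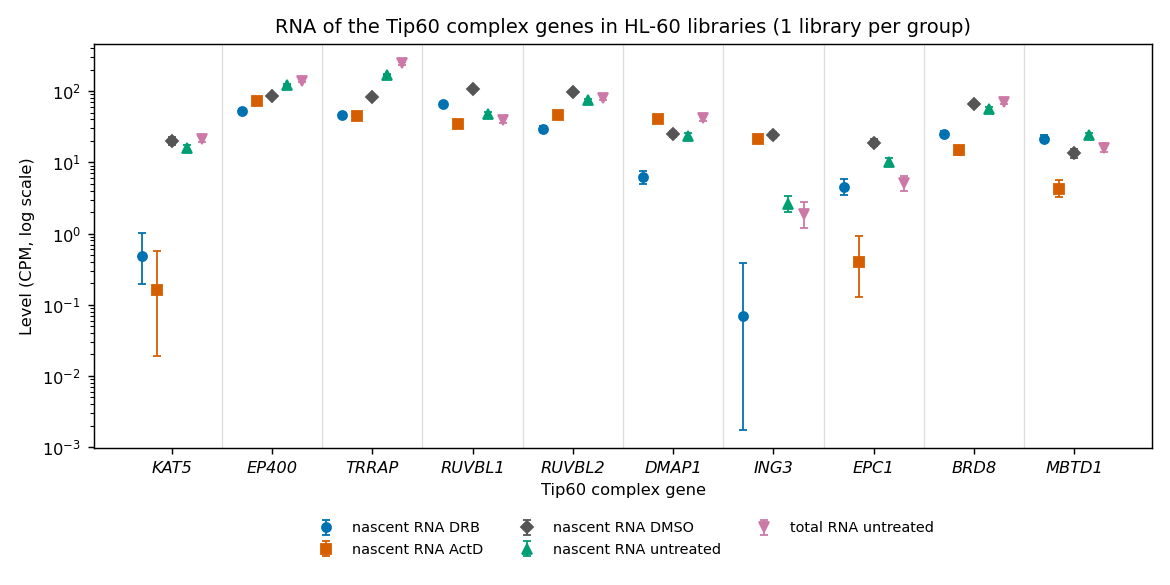
Level of each Tip60 complex gene in CPM on a log scale in 5 HL-60 RNA libraries, in the order DRB, ActD, DMSO, untreated nascent and total RNA, each point 1 library with its exact 95% Poisson interval, which covers counting error only. KAT5 lies below 1 CPM under both inhibitors, ING3 under DRB alone and EPC1 under ActD alone.

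The catalytic subunit was the gene that nearly disappeared under both inhibitors. KAT5 (ENSG00000172977) had 0.488 CPM (7 counts) under DRB and 0.159 CPM (2 counts) under ActD, against 20.03 CPM (289 counts) under DMSO, 15.9 CPM in untreated nascent and 21.6 CPM in total RNA. Both inhibitor libraries stood far below the other 3, which differed little among themselves. The KAT5 CPM was 41.0 times lower under DRB than under DMSO, a log2 ratio of counts of -5.36 (95% interval -6.69 to -4.30), and 126 times lower under ActD, at -6.98 (-10.03 to -5.11). With 1 CPM added the log2 ratios were -3.82 for DRB and -4.18 for ActD, below which lay 3.37% and 2.46% of all genes tested. Centring left them at -2.50 and -3.01. Fewer cells with KAT5 RNA and less KAT5 RNA per cell cannot be told apart in such bulk samples.

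KAT5 shares 1932 bases at its far end with RNASEH2C, which encodes a subunit of an RNA:DNA hybrid nuclease and runs on the opposite strand. RNASEH2C had 36 counts under DRB and 999 under ActD, against 256 under DMSO. Reads from the shared stretch cannot be told apart without strand, and the part of this overlap in the KAT5 counts was not tested. Over the 5 RNA libraries, the genes with profiles most like KAT5 among 13081 were ZDHHC7, APEX2, RABL2A, ADAMTS17 and PRUNE1, with Euclidean distances of 0.228 to 0.345 between centred log2(CPM + 1) profiles. ZDHHC7, the nearest, had 1.95 CPM under DRB and 0.952 under ActD, against 39.2 CPM under DMSO. The nearest other subunit was BRD8, ranked 2493 at a distance of 2.48, and ING3 was the farthest, ranked 11654.

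Under DRB 6 of the 10 genes were at least 2-fold lower and none higher, against 57.4% of 12252 tested genes lower and 9.62% higher, so the share is near that of all genes. The subunits had a median log2 ratio of -1.54, against -1.32 for all genes. Centred on the median gene, 2 stayed lower (KAT5 and ING3), where 23.2% of genes did, and 1 was higher (MBTD1), where 26.4% of genes were. Under ActD, which shares the DMSO library, 6 were lower and none higher, against 53.1% and 15.9% of 12149 genes. Their median was -1.26, against -1.17 for all genes, and after centring 2 were lower (KAT5 and EPC1) and 1 higher (DMAP1), where 27.5% and 31.9% of genes were.

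**Figure D2:**
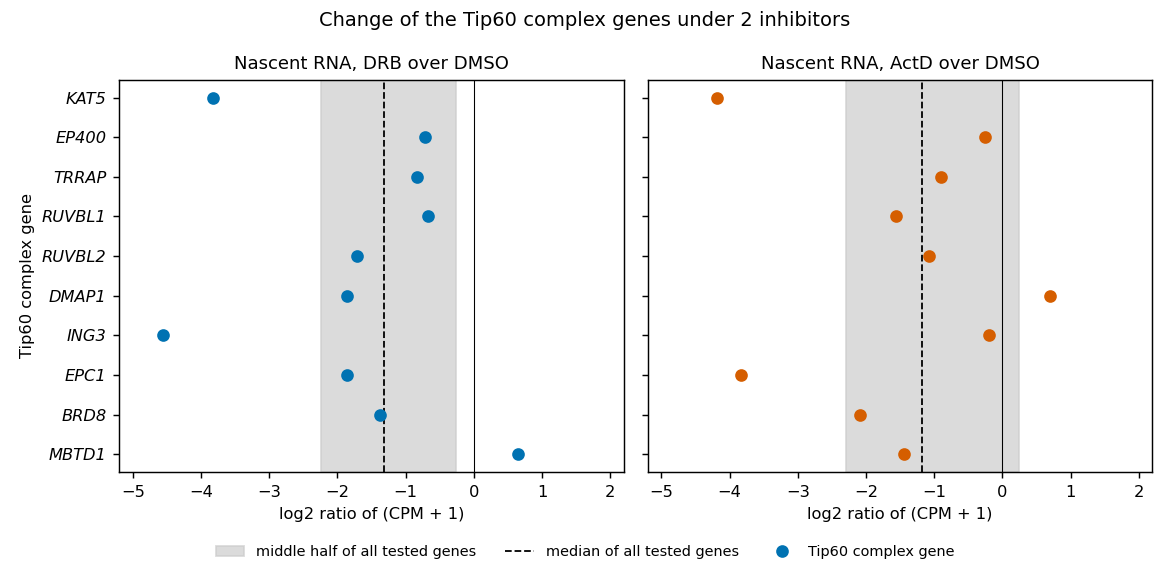
Log2 ratio of CPM + 1 for each Tip60 complex gene, DRB over DMSO on the left and ActD over DMSO on the right, 1 library per group, with the interquartile range of all tested genes in grey and their median as a dashed line. KAT5 lies left of the grey band in both panels, ING3 in the DRB panel (-4.56) and EPC1 in the ActD panel (-3.84), while MBTD1 under DRB and DMAP1 under ActD lie right of it.

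ING3, a reader of methylated histone H3, parted from KAT5 under ActD. It had 0.0697 CPM (1 count) under DRB and 21.0 CPM (264 counts) under ActD, against 24.3 CPM (350 counts) under DMSO. The ActD and DMSO libraries were alike and the DRB library held a single read. The ratio of counts was -8.44 on the log2 scale for DRB over DMSO, with an interval of -13.75 to -5.95, and -0.21 (-0.45 to 0.02) for ActD over DMSO. ING3 also differed between the vehicle and untreated nascent libraries, at 24.3 CPM under DMSO and 2.62 CPM untreated, a log2 ratio of 2.80 with 1 CPM added. It was thus scarce in both untreated libraries, with 1.89 CPM in total RNA.

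EPC1 and MBTD1, which bind each other in the complex, were both lower under ActD and differed under DRB. EPC1 had 4.53 CPM under DRB and 0.397 CPM (5 counts) under ActD, against 19.0 CPM under DMSO, giving log2 ratios of -1.85 and -3.84. MBTD1 had 21.6 CPM under DRB and 4.29 CPM under ActD, against 13.4 CPM under DMSO, giving 0.65 and -1.44. MBTD1 was the sole subunit with a higher CPM under DRB than under DMSO, and its counting interval there was 0.43 to 0.96. Centring brought it to 1.97. MBTD1 shares 413 bases with UTP18, a ribosome biogenesis gene on the opposite strand that had 21.6 CPM under DRB and 22.9 CPM under ActD, against 31.1 CPM under DMSO.

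DMAP1 showed the opposite order to EPC1. It had 6.14 CPM under DRB and 41.2 CPM under ActD, against 24.95 CPM under DMSO, and was thus 4.07 times lower under DRB and 1.65 times higher under ActD. Its log2 ratio under ActD was 0.70 and became 1.87 after centring. The authors' effective length of DMAP1 was 897 bases under ActD and 2040 under DMSO. Of 12146 genes 10.8% had an effective length at least halved in that comparison. DMAP1 and ING3 were the 2 of 9 subunits tested that were at least 2-fold higher under ActD than under DRB, at log2 ratios of 2.56 and 4.36, where 38.0% of 10430 genes were higher. EPC1 and MBTD1 were lower there, at -1.99 and -2.10, where 30.6% of genes were lower, and KAT5 did not pass the count filter.

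The scaffold genes EP400 and TRRAP were the sole members within 2-fold of DMSO under both inhibitors. EP400 had 51.8 CPM under DRB and 71.8 CPM under ActD, against 86.0 CPM under DMSO, with log2 ratios of -0.72 and -0.26. TRRAP had 46.4 and 44.2 CPM under DRB and ActD, against 83.3 CPM under DMSO, with ratios of -0.83 and -0.90. All 4 of these ratios were below 0 in CPM and above 0 after centring, at 0.60 and 0.92 for EP400 and 0.49 and 0.27 for TRRAP. TRRAP was also 2-fold lower under DMSO than in untreated nascent RNA, at 83.3 against 171 CPM (log2 ratio -1.03), though it became higher, at 1.86, in the deposited TPM. EP400 has a near-copy, EP400NL, so its counts are uncertain to the extent that reads were split: EP400NL held 25 counts under DRB and 16 under ActD, against 280 under DMSO, while EP400 held 743 and 905 against 1241. The effective length of TRRAP was 1688 bases under ActD, against 4434 under DMSO.

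The paired ATPase genes did not move as a pair. RUVBL1 had 66.0 CPM under DRB and 35.1 CPM under ActD, against 106 CPM under DMSO, and RUVBL2 had 29.1 and 45.6 CPM, against 97.3 CPM under DMSO. RUVBL1 was the lower of the 2 under ActD and RUVBL2 under DRB, with log2 ratios of -0.67 and -1.57 for RUVBL1 and -1.71 and -1.08 for RUVBL2. After centring, RUVBL1 stood at 0.65 under DRB, and RUVBL2 turned from -1.08 to 0.09 under ActD. RUVBL1 was also 2-fold higher under DMSO than in untreated nascent RNA, at 106 against 47.6 CPM (log2 ratio 1.14). Rescaled without mitochondrial, ribosomal RNA and polymerase III genes, this ratio was 0.89, below 2-fold. In CPM, RUVBL1 and ING3 made 2 of 10 genes higher in that comparison, where 23.3% of 13714 genes were. TRRAP made 1 lower, where 24.5% were. RUVBL1 shares 6899 bases with SEC61A1, a gene of the protein translocon with 153 counts under DRB and 405 under ActD, against 557 under DMSO, while the antisense RNA RUVBL1-AS1 was listed at 0 in all 5 libraries.

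BRD8, the bromodomain subunit, had 25.1 CPM under DRB and 14.9 CPM under ActD, against 66.6 CPM under DMSO, with log2 ratios of -1.37 and -2.09. Centred on the median gene these were -0.05 and -0.91. KIF20A, a mitotic kinesin beside BRD8 on the opposite strand, had 9 counts under DRB and 252 under ActD, against 1436 under DMSO. The gene bodies of this pair do not overlap.

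Longer subunit genes had the higher DRB over DMSO ratios: the Spearman correlation between gene length and log2 ratio was 0.61 over the 10 genes, against 0.24 over 10137 genes with a length. Genes below the lower quartile of length (13.5 kb) had a median log2 ratio of -1.69 under DRB, and those above the upper quartile (74.6 kb) -0.64. KAT5 and DMAP1, at 7.59 and 7.20 kb, are the shortest members, and EP400 and TRRAP, at 130.5 and 134.7 kb, the longest. Under ActD the correlation was -0.07 over the 10 genes and -0.15 over all. Genes within a library share its depth and scaling, so these are descriptions.

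The input DNA libraries, which measure gene copies rather than RNA, were shallow, with 440923 counts for DRB, 469547 for ActD and 455948 for DMSO. EP400, the deepest of the 10 genes there, had 40.8 counts under DRB and 46.8 under ActD, against 34.6 under DMSO. None of the 6 genes that passed the filter for DRB against DMSO, or of the 7 for ActD against DMSO, differed 2-fold, where 3.72% and 6.06% of genes were higher and 3.69% and 4.25% lower. The depth limits this: the counting interval reached past 2-fold for 3 of the 6 and 6 of the 7, and for EP400 it was -0.41 to 0.97 for DRB and -0.28 to 1.06 for ActD.

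Genes of related complexes are given by their counts, to be read against the shares of all genes above. Of 9 further TIP60 subunits, 5 were lower and none higher under DRB (median -1.46), and 5 lower and none higher under ActD (median -1.16). VPS72, the H2A.Z chaperone subunit, had 6.29 CPM under ActD against 115 CPM under DMSO, and MORF4L2, a relative of MORF4L1 that lacks its chromodomain, 3.84 CPM under DRB against 43.5 CPM under DMSO. Of the INO80 complex, which also contains RUVBL1 and RUVBL2, 7 of 11 tested were lower under DRB and 8 of 11 under ActD, where 2 were higher, with YY1 at 1.26 CPM under DRB against 66.5 CPM under DMSO and MCRS1 at 53.9 CPM under ActD against 6.59 CPM under DMSO. Of SAGA, which shares TRRAP, 7 of 11 were lower under each inhibitor, and 1 was higher under DRB (SUPT3H, 1.48) and 2 under ActD (ENY2, 2.34, and SUPT7L, 1.66). All 3 SRCAP genes were lower under DRB, SRCAP itself having 31.0 CPM against 132 CPM under DMSO, and 1 was lower under ActD. Centred on the median gene, none of the 3 was lower under either inhibitor, and 1 was higher under ActD. ZNHIT1 and ACTR6 had only 3.88 and 4.16 CPM under DMSO.

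Among 9 other acetyltransferases, 4 were lower under DRB (KAT7 at -2.65) and 5 under ActD, where KAT8, another MYST enzyme, was higher with 52.7 CPM against 12.1 CPM under DMSO. Of the R2TP and TTT chaperones, which assemble RUVBL1, RUVBL2 and TRRAP into complexes, 5 of 7 were lower under DRB and none higher, and 3 of 8 were lower under ActD and 2 higher. The higher ones were WDR92, with 71.6 CPM under ActD against 9.19 CPM under DMSO, and PIH1D1, with 47.4 against 18.2 CPM. TTI1, which handles TRRAP-like kinases, had 8.79 CPM under DRB and 4.44 CPM under ActD, against 97.5 CPM under DMSO. The H2A.Z genes, H2AFZ and H2AFV, and the chaperone ANP32E gave 1 lower under DRB (H2AFV, -2.08) and none under ActD, where H2AFV stood at 0.90. Centred on the median gene, the median of the 9 further subunits was -0.14 under DRB and 0.01 under ActD, with 3 and 2 of them lower. The centred medians were -0.77 and -0.71 for INO80, -0.77 and -0.70 for SAGA, -0.74 and 0.72 for SRCAP, 0.41 and -0.46 for the acetyltransferases, -0.63 and 0.82 for the chaperones and 0.67 and 1.43 for the H2A.Z genes, each under DRB and then under ActD.

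All 10 genes carried an acH2A.Z peak, within 1 kb of the gene, under DRB, under ActD and under DMSO. The same held for 66.8%, 57.8% and 57.1% of 20033 protein-coding genes, and for 95.3%, 86.7% and 90.6% of the 10248 with at least 1 CPM in nascent RNA of DMSO cells, so the count is near that of genes with RNA. All 11 RefSeq starts, and the low-coordinate ends of TRRAP and ING3, had one in each of the 3 lists. Of 27305 genes with a RefSeq start, 44.4% had one within 1 kb of it under DRB and 38.1% under ActD, against 39.1% under DMSO. These start shares were not limited to genes with RNA. Away from the starts, EPC1 held small peaks inside the gene, of 25.8 and 23.4 tags under DRB and 55.1 and 42.8 under ActD, against 53.9 under DMSO, RUVBL1 held 1 of 10.6 tags under ActD, and KAT5 had a peak past its far end. TRRAP held a further peak of 12.1 tags under DRB, within the span of its DMSO start peak. RUVBL1 overlaps EEFSEC by 434 bases, and MBTD1 overlaps UTP18 by 413. GYS1 lies within 1 kb of RUVBL2, ERI3 of DMAP1, and KIF20A and NME5 of BRD8. Which gene a peak there belongs to was not tested. Tags are the authors' normalized tag counts per peak, which were called in each library separately. The ratio of scaled to normalized tags was 0.536 under DRB and 1.97 under ActD, against 0.352 under DMSO, and the part of this scaling in the comparisons was not tested.

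**Figure D3:**
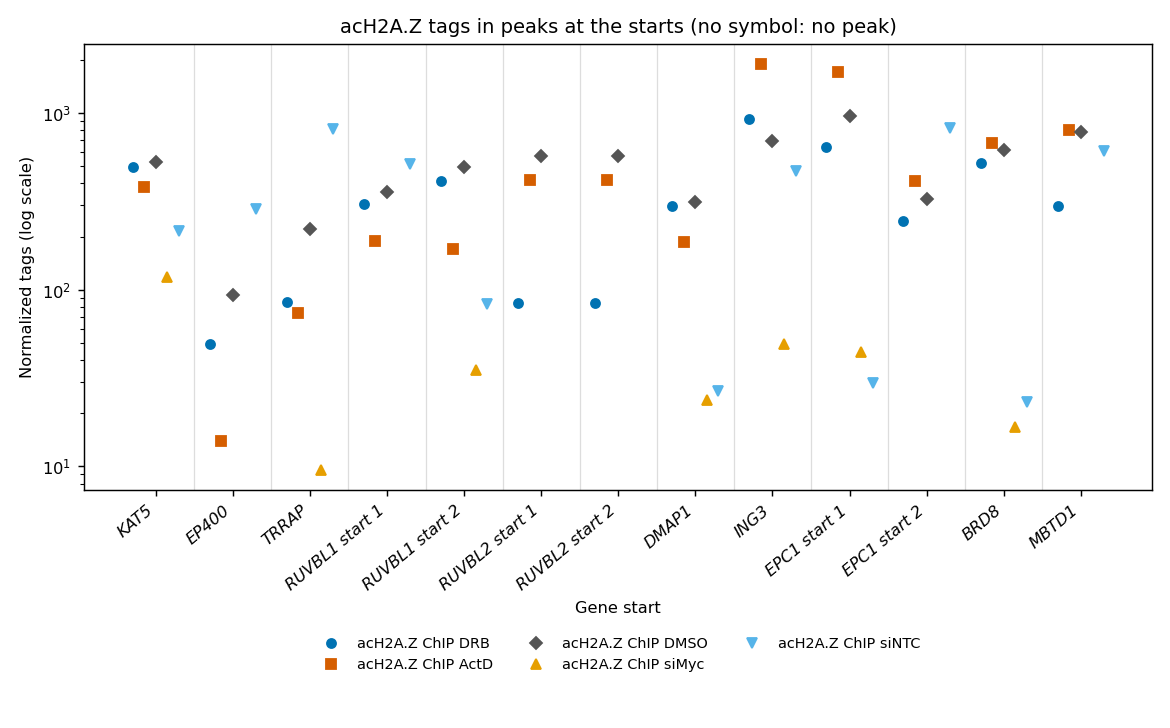
Normalized acH2A.Z tags, on a log scale, in the peak at each start of the Tip60 complex genes for DRB, ActD, DMSO, siMyc and siNTC cells, 1 library each; a missing symbol means no peak, and the RUVBL2 starts share a peak. ING3 and the first EPC1 start are highest under ActD (1889 and 1700 tags), and TRRAP and the second EPC1 start are the highest in siNTC cells (809 and 828 tags). The siMyc symbol of TRRAP is a peak before the gene that does not overlap the siNTC peak.

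KAT5 kept its acH2A.Z start peak while its RNA was nearly gone, and most starts kept theirs. Of 13525 RefSeq starts with a peak under DMSO, 98.0% had one under DRB and 89.5% under ActD. The KAT5 peak held 496 tags under DRB and 382 under ActD, against 532 under DMSO. It spanned 2.08 kb under DRB and 1.91 kb under ActD, against 2.79 kb under DMSO. The log2 ratio of tags was -0.10 for DRB over DMSO and -0.475 for ActD over DMSO, and in tags per kb 0.32 and 0.07. A further acH2A.Z peak past the far end of KAT5, at the start of RNASEH2C, held 165 tags under DRB and 298 under DMSO and was not called under ActD, where RNASEH2C RNA was higher.

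ING3 and EPC1 had more tags under ActD than under DMSO, as did BRD8 and MBTD1 by smaller ratios. In tags per kb the log2 ratios were 0.99 for ING3, 0.26 and 0.03 for the EPC1 starts, -0.055 for BRD8 and -0.42 for MBTD1. ING3 had 922 tags under DRB and 1889 under ActD, against 690.5 under DMSO, and its peak was 3.35 kb long under DRB and 4.90 kb under ActD, against 3.56 kb under DMSO. The first EPC1 start had 639 tags under DRB and 1700 under ActD, against 962 under DMSO, and its peak reached 6.40 kb under ActD against 4.34 kb under DMSO. These were the highest start peaks of the 10 genes under ActD, where EPC1 RNA was at 0.397 CPM and ING3 RNA at 21.0 CPM. The second EPC1 start had 245 tags under DRB and 413 under ActD, against 328 under DMSO.

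Under DMSO the scaffold genes had the weakest start peaks, and under ActD the lowest ratios to DMSO. EP400 had 49.6 tags under DRB and 13.9 under ActD, against 93.2 under DMSO, and TRRAP had 84.7 and 74.1, against 221. In log2 ratio of tags these were -0.91 and -2.75 for EP400 and -1.38 and -1.58 for TRRAP. The TRRAP values for DRB leave out a further peak of 12.1 tags, within the span of its DMSO peak. RUVBL2 had 83.8 tags under DRB and 416 under ActD, against 571 under DMSO, a log2 ratio of -2.77 under DRB that was the lowest of the 10 genes. MBTD1, whose RNA was not lower under DRB, had 298 tags under DRB and 799 under ActD, against 779 under DMSO. For comparison, all RefSeq starts with a peak in both lists had a median log2 tag ratio of -0.70 for DRB (interquartile range -1.47 to 0.25) and -0.65 for ActD (-1.46 to 0.01), and the subunits' RefSeq starts -0.42 and -0.46.

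The RUVBL1 starts, BRD8 and DMAP1 lay between these. RUVBL1 had 304 tags under DRB and 188 under ActD, against 355 under DMSO, at its first start, and 413 and 171 against 497 at its second. BRD8 had 520 tags under DRB and 674 under ActD, against 620 under DMSO. DMAP1 had 297 tags under DRB and 187 under ActD, against 313 under DMSO, although its RNA was higher under ActD than under DMSO. Over the 13 starts, tags under ActD and DMSO had a Spearman correlation of 0.93 and tags under DRB and DMSO 0.60, against 0.80 and 0.59 over all starts, where RUVBL2 gives the same peak to both its starts.

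**Figure D4:**
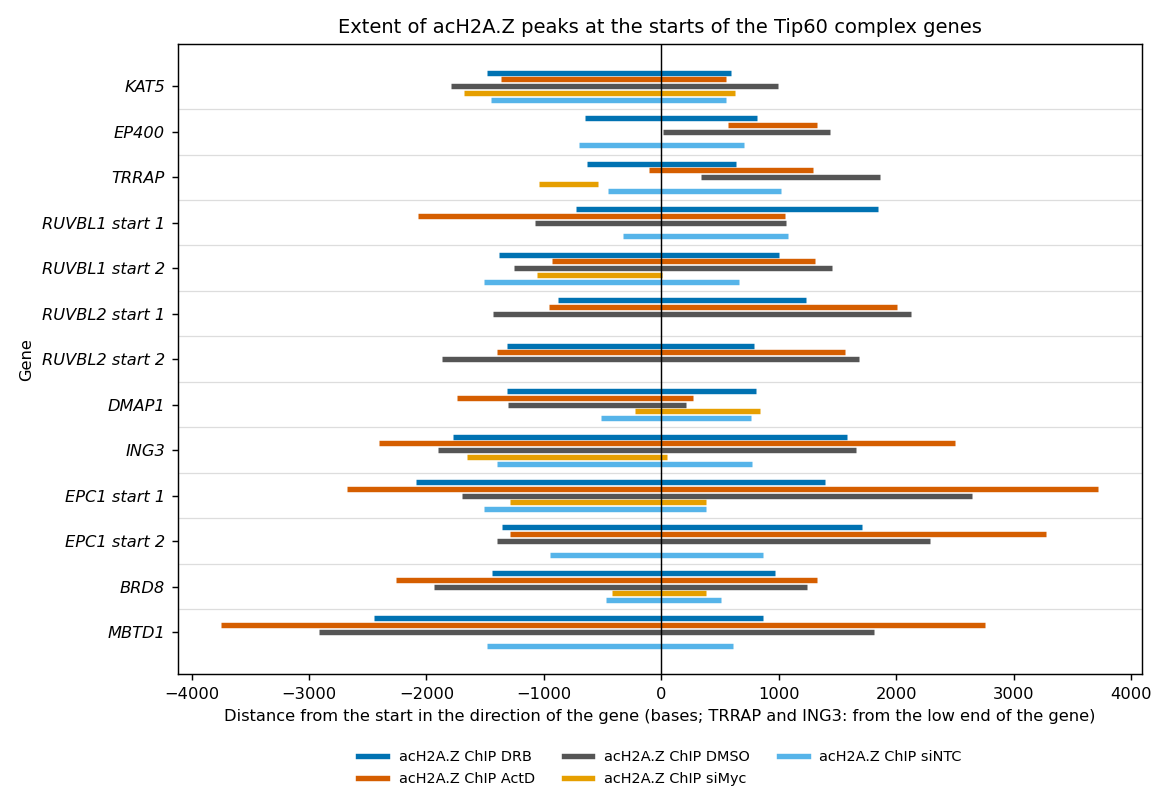
Extent in bases of the acH2A.Z peak at each start of the Tip60 complex genes, by distance along the gene, with DRB, ActD, DMSO, siMyc and siNTC drawn from top to bottom and no line where no peak was called. The peaks of MBTD1 and of the first EPC1 start reach 6.50 and 6.40 kb under ActD, and BRD8 and DMAP1 have short peaks in siMyc and siNTC cells.

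After the treatment labelled siMyc, 7 of the 10 genes had an acH2A.Z peak, against 9 of 10 in siNTC cells, where 38.1% and 60.2% of protein-coding genes had one, as did 58.7% and 92.2% of those with at least 1 CPM in nascent RNA of DMSO cells. EP400 and MBTD1 had a peak in siNTC cells alone, and RUVBL2 in neither. These lists differ in the way they were scaled: the siMyc list had its control scaled to the sample and the siNTC list its sample scaled to the control. KAT5 had 118 tags in siMyc cells against 215 in siNTC cells, a log2 ratio of -0.86. The median over all RefSeq starts with a peak in both lists was -3.04. The TRRAP start peak of siNTC cells, with 809 tags, was not called in siMyc cells, whose sole TRRAP peak, of 9.54 tags, lay before the gene and did not overlap it. RUVBL1 kept a peak at its second start alone, with 35.0 tags in siMyc cells against 82.6 in siNTC cells, and had none at its first start in siMyc cells, against 514 tags in siNTC cells.

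ING3 had 49.0 tags in siMyc cells against 468 in siNTC cells, and DMAP1 23.7 against 26.6. The first EPC1 start had 44.6 tags in siMyc cells against 29.7 in siNTC cells, the sole start with more in siMyc cells, while the second had no peak in siMyc cells against 828 tags in siNTC cells. Of all RefSeq starts with a peak in siNTC cells, 50.5% had one in siMyc cells, with a median log2 tag ratio of -3.04, and of the 9 subunit starts 5 had one. Of all 27305 genes with a RefSeq start 22.4% had a peak there in siMyc cells, against 41.2% in siNTC cells.

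The siNTC list stood apart from the DMSO list, although both are control states. BRD8 had 23.1 tags in siNTC cells against 620 under DMSO, and the first EPC1 start 29.7 against 962, while TRRAP had 809 against 221 and EP400 286 against 93.2. Over 12666 starts with a peak in both, tags in siNTC and DMSO cells had a Spearman correlation of -0.02. GC content moved with this: across starts its correlation with tags was 0.40 in siNTC cells and -0.18 under DMSO, and its part in the difference was not tested. The same held between the siMyc and siNTC lists, whose tags had a Spearman correlation of -0.01 over 7180 starts, with a GC correlation of -0.14 in siMyc cells. Whether these lists were labelled and prepared alike was not tested, and every siMyc and siNTC value above carries that limit.

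The antibody to H2A.Z itself called few peaks at these genes. Under DRB 3 genes had one (KAT5, ING3 and EPC1), under ActD 2 (RUVBL1 and TRRAP) and under DMSO 2 (BRD8 and EPC1), where 14.7%, 17.1% and 6.72% of protein-coding genes did, and 25.1%, 22.3% and 12.1% of those with at least 1 CPM in nascent RNA of DMSO cells. EPC1 had H2A.Z peaks at both starts, with 23.1 and 34.9 tags under DRB against 17.5 and 32.6 under DMSO, and none under ActD; of the 27305 genes with a RefSeq start 9.64% had an H2A.Z peak there under DRB and 4.60% under ActD, against 4.61% under DMSO. Both ActD peaks, of 6.67 tags in TRRAP and 7.68 in RUVBL1, lay inside the gene rather than at a start. In siMyc cells DMAP1 and ING3 had H2A.Z peaks and in siNTC cells BRD8 and MBTD1, where 22.0% and 14.5% of protein-coding genes did, and 30.4% and 19.9% of those with at least 1 CPM. At RefSeq starts these shares were 10.7% and 6.56%. The H2A.Z lists held between 1271 peaks under DMSO and 17888 under ActD, so a missing peak is no measure of absence.

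The RIP list of the antibody to the catalytic subunit held peaks over most of the complex's own genes, at a count and a density not far from those of other genes. Tip60 RIP peaks lay over 7 of the 10 genes, and acH2A.Z and H2A.Z RIP peaks over 8 each, where 79.5%, 79.8% and 60.4% of protein-coding genes had one, and 87.1%, 83.8% and 71.4% of those with at least 1 CPM in nascent RNA of DMSO cells. The Tip60 list held 54 peaks over the 10 genes: 13 in TRRAP, 12 in RUVBL1, 11 in EP400, 10 in MBTD1, 4 in EPC1 and 2 each in DMAP1 and BRD8. KAT5, RUVBL2 and ING3 had none. Per 100 kb this was 8.04 peaks, against 9.50 over all protein-coding genes and 10.3 over those with at least 1 CPM in nascent RNA of DMSO cells. The acH2A.Z list held 34 peaks, 5.06 per 100 kb against 8.98 and 8.22, and the H2A.Z list 31, 4.62 per 100 kb against 3.92 and 4.67.

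**Figure D5:**
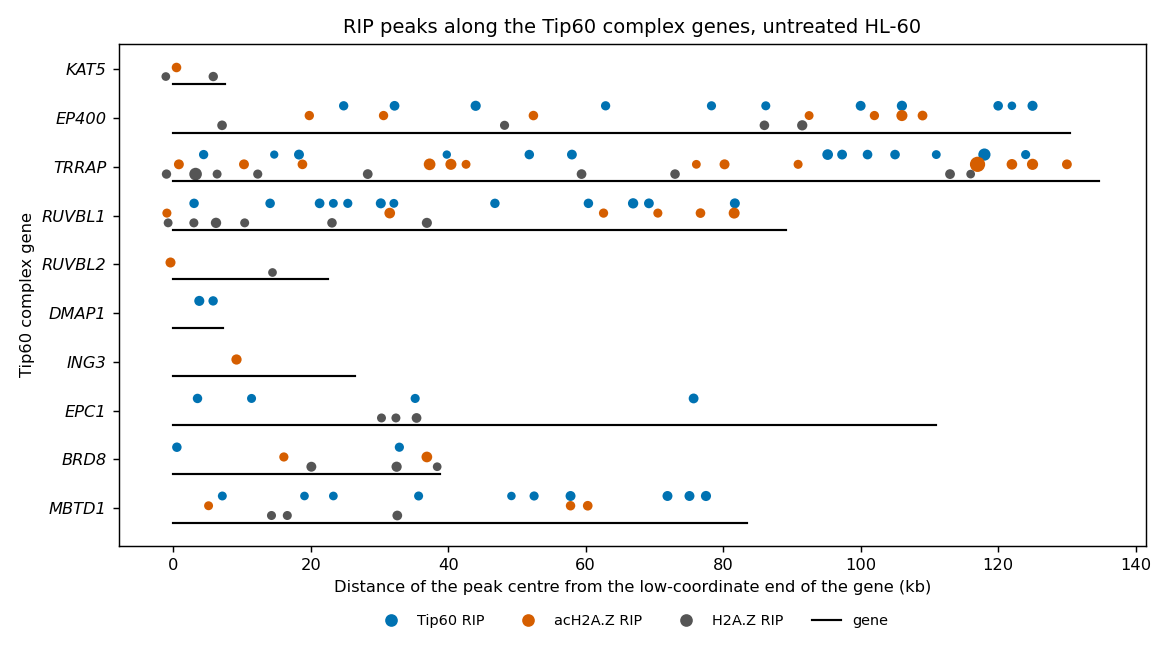
Centre of each RIP peak along the Tip60 complex genes in untreated cells, by distance in kb from the low-coordinate end of the gene, for Tip60, acH2A.Z and H2A.Z, with larger dots for more tags and a black line for the gene. The long genes EP400, TRRAP, RUVBL1 and MBTD1 hold most peaks, and the largest dot is the acH2A.Z peak of 943 tags in TRRAP.

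Most RIP peaks at the 10 genes were small, with 50 of 54 Tip60 peaks under 10 tags. The 54 had a median of 6.085 tags, against 6.12 over all 249628 Tip60 RIP peaks, so small peaks are usual in that list. Among the peaks at the 10 genes TRRAP held the tallest of each list by tags. A TRRAP stretch 117 kb from its low end, chr7:98995383-98996446, held 943 tags in the acH2A.Z list, and the Tip60 peak on the same place held 49.9 tags. By the deposited score the acH2A.Z peak there was not high, since 25.1% of its list scored lower. The H2A.Z list had no peak there. Its tallest, of 70.4 tags at chr7:98881538-98882038, covered MIR3609 and SCARNA28, small RNAs encoded inside TRRAP. In EP400 the tallest was an acH2A.Z peak of 19.7 tags at chr12:132055320-132056070, also shared with Tip60 (10.1 tags).

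At the 10 genes 7 of 54 Tip60 peaks (13.0%) overlapped 7 of 34 acH2A.Z RIP peaks (20.6%), where 33.1% of all Tip60 and 31.2% of all acH2A.Z RIP peaks met one of the other list. With H2A.Z, 5 Tip60 peaks (9.26%) overlapped 5 of 31 H2A.Z RIP peaks (16.1%), where 8.43% of all Tip60 and 21.3% of all H2A.Z RIP peaks did. Shares of all RIP peaks that lie on ChIP peaks were not computed, so the overlaps with ChIP peaks that follow have no background. A single Tip60 RIP peak, of 6.05 tags at chr3:128124841-128125495, lay on an acH2A.Z ChIP peak of each of the 5 lists. In DRB, DMSO, siMyc and siNTC cells that was the peak at the second RUVBL1 start, and in ActD cells a separate small peak of 10.6 tags farther from the start. No Tip60 RIP peak lay within 1 kb of a RefSeq start of the 8 genes with one, where 28.8% of all genes with a RefSeq start had one (33.4% for acH2A.Z and 9.62% for H2A.Z RIP). At the starts of KAT5, TRRAP and RUVBL2, an acH2A.Z RIP peak of 6.44, 8.12 and 8.90 tags lay on the acH2A.Z ChIP peak of DMSO cells. KAT5 also had H2A.Z RIP peaks of 3.72 tags before its start and 5.70 tags in the stretch shared with RNASEH2C, and ING3 an acH2A.Z RIP peak of 10.4 tags inside the gene. The RUVBL2 peak also overlaps the neighbour GYS1, and the lists carry no strand, so the gene that gave the RNA is uncertain.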

How the data were processed

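The 21 libraries used gave 8 gene tables (5 of RNA and 3 of input DNA) and 13 peak lists (10 ChIP and 3 RIP); the 6 IgG libraries were not analysed here. Per the submitters' processing notes, the build was GRCh38 and the tools were Trim Galore, cutadapt, FastQC, HOMER and STAR 2.5.2b. No source used here names the quantifier or annotation. Expected counts, TPM and FPKM by gene stand in the gene tables, per the file headers; 3 treated nascent tables had packed fields, which were separated. Per the file headers, the peak lists hold a p-value, a score, a normalized tag count (signal) and a fold enrichment against a control library; in the deposited lists every fold is at least 4. No source used here names the control library or the tag scale.

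The deposited expected counts were scaled to CPM and compared as log2(CPM + 1) ratios, for genes averaging 1 CPM or more with 20 or more counts summed, called at 2-fold. With 1 library per group no p-value was computed. Exact 95% binomial (Clopper-Pearson) intervals of count ratios used rounded counts; these, the Poisson intervals and the floor of 3 counts cover counting error only. Floors were 0.209 CPM under DRB, 0.238 under ActD, 0.208 under DMSO, 0.119 in untreated nascent and 0.237 in total RNA. A peak counted for a gene when it lay over or within 1 kb of its RefSeq span (GRCh38.p14). The deposited TPM served as an alternative, FPKM was not used, and the deposited scores ranked peaks within a list.

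The members, gene lists and marker lists were chosen with earlier results of these data known. Named were all 10 members, up to 2 highest and 2 lowest genes of each further list (of which a part is printed), the 5 genes most like KAT5 among those with at least 100 counts, and the highest-scoring or otherwise described peaks; peaks in TRRAP and EP400 singled out by tags were chosen after their values were seen. CCDC101 of the SAGA list was not matched. Of the other cell types listed (monocyte, T cell, B cell, erythroid, epithelial and fibroblast), at most 1 of 3 markers exceeded 1 CPM in any RNA library. Scripts (Python 3.11.15, scipy 1.17.1) were tested on simulated data.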

Additional observations from a re-analysis of the deposited data

How the results depend on the processing

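Counts of subunits past 2-fold depended on the scale. Centred on the median gene, the 6 lower under DRB became 2 and the 0 higher became 1, the 6 lower under ActD became 2 and the 0 higher became 1, and 1 rather than 0 was higher in untreated nascent over total RNA; RUVBL2 under ActD reversed to 0.094. Rescaled without mitochondrial, ribosomal RNA and polymerase III genes, 1 rather than 0 was higher under DRB, under ActD and in nascent over total RNA, 4 rather than 2 were lower in ActD over DRB, and DMSO over untreated had 2 lower and 1 higher in place of 1 and 2. With the deposited TPM, 1 rather than 0 was higher under ActD, in input DRB and in input ActD; ActD over DRB had 4 lower and 4 higher in place of 2 and 2; nascent over total had 2 lower in place of 0; DMSO over untreated had 10 higher and 0 lower in place of 2 and 1, and TRRAP reversed to 1.86 there. A pseudocount of 5 CPM left 1 lower in ActD over DRB and 0 lower in DMSO over untreated. The causes were not tested, beyond each scale's own construction. Under a pseudocount of 0.5 CPM all 69 values, of single genes and of member medians, moved by at most 0.5 times the width of the counting interval. For medians this was the median interval of the members. Of the 69 values, 11 moved past that limit with a pseudocount of 5 CPM and 42 after the rescaling. Centring moved 33 past it and reversed 1, and the deposited TPM moved 43 past it and reversed 1.

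Peak counts fell most when lists were cut to equal length by score, which keeps fewer peaks by construction: acH2A.Z ChIP then gave 0 under DRB, 0 under ActD, 2 under DMSO, 0 in siMyc and 1 in siNTC cells, in place of 10, 10, 10, 7 and 9, and H2A.Z ChIP gave 0 under ActD, 1 in siMyc and 0 in siNTC cells, in place of 2 each. With a fold of at least 8, acH2A.Z siMyc gave 3, and H2A.Z gave 1 under ActD, 1 in siMyc and 0 in siNTC cells. Within 1 kb of RefSeq starts of 8 genes, H2A.Z ChIP gave 0 under ActD, 1 in siMyc and 1 in siNTC cells, and RIP gave 0 for Tip60, 2 for acH2A.Z and 1 for H2A.Z, in place of 7, 8 and 8. No extension, an extension of 5 kb and the rule that most of the peak lies inside changed no count by over 1.5 times. No paired analysis was possible because each group has 1 library. Leaving out a replicate was not possible for the same reason. Depth limits KAT5, ING3 and EPC1 at under 10 counts and all input DNA ratios.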
